A study of Mus musculus with 6 samples.

Results

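The Reg family lectins were followed here in colon RNA from Setd2 KO mice and control mice. The members are 6 genes, Reg1, Reg2, Reg3a, Reg3b, Reg3g and Reg4, and every array probe that the platform annotation assigns to them was used, 7 probes of 45281 in all. The array names 19057 genes. Reg3b had 2 probes and each of the other genes had 1. The 3 KO samples carried the genotype Setd2 KO and the 3 control samples the genotype control, all from the colon of C57BL/6 mice at 6 weeks of age, with 1 Illumina bead array for each sample. The labels name no promoter, Cre or cell type for the deletion and do not say how many animals were sampled, so a p-value here reflects only the spread among the samples of a group, which may be technical. Setd2 encodes the enzyme that trimethylates histone H3 at the lysine that marks transcribed gene bodies, and the series asks which colon genes are misregulated when it is disrupted.

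Reg proteins are small secreted proteins built around a C-type lectin fold. Reg3b and Reg3g are made by intestinal epithelium and bind bacteria at the mucosal surface, where Reg3g kills Gram-positive species, and both genes are known to be switched on through MyD88 and through the IL-22 and STAT3 pathway. Reg1 and Reg2 are known above all as secretory products of pancreatic acinar cells. Reg4 marks secretory cells at the base of colonic crypts and some hormone-producing cells. In the RefSeq gene table the members other than Reg4 lie beside each other on chromosome 6, in the order Reg3b, Reg3d, Reg3a, Reg2, Reg1, a pseudogene and Reg3g, while Reg4 lies on chromosome 3.

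Because members of this cluster varied together in different subsets across the arrays, as described next, the 200 bases before the start of 5 of them are shown, from RefSeq (GRCm38.p6), each 5′ to 3′ on the gene's own strand. Reg1 lies at chr6:78425783-78425982, Reg2 at chr6:78404955-78405154, Reg3a at chr6:78380509-78380708 and Reg3b at chr6:78370685-78370884, all on the plus strand, and Reg3g at chr6:78468875-78469074 on the minus strand. Capitals mark 4 motifs: TATAAA on the gene's strand, and on either strand CACCTG and TTTCCC, the letters of both parts of the site of the acinar factor PTF1, and TTCNNNGAA, the palindrome that STAT factors bind.
Reg1: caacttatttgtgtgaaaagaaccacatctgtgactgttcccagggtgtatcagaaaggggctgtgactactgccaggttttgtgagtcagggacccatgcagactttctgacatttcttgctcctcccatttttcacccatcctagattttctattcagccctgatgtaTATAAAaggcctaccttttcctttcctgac
Reg2: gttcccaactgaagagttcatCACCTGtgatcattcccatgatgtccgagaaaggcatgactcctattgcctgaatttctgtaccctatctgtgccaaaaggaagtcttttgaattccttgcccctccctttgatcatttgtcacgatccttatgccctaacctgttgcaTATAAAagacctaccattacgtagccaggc
Reg3a: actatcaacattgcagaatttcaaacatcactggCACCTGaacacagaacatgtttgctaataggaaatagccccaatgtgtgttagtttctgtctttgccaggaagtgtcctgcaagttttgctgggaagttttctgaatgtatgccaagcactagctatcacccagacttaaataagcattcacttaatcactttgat
Reg3b: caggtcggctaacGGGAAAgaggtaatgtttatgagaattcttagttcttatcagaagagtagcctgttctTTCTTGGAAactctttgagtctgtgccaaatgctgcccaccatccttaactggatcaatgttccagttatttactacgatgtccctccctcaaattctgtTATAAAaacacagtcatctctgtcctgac
Reg3g: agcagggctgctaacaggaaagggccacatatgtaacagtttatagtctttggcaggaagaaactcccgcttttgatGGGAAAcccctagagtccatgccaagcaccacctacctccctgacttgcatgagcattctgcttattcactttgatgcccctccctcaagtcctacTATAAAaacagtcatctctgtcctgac

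TATAAA stood 30 bases before the start of Reg1 and of Reg2, 29 before Reg3b and 27 before Reg3g, and it occurred in 6.3% of 32851 such windows over all genes. Reg3a and Reg4 had no such match in this window. CACCTG was found before Reg2, Reg3a and Reg4, and in 13.9% of all windows. TTTCCC was found before Reg3b and Reg3g, and in 17.8% of all windows. TTCNNNGAA was found before Reg3b, 129 bases upstream of its start, and in 5.5% of all windows. No matches of different motifs overlapped. In global alignments of these windows, Reg3b and Reg3g shared 140 of the 200 bases and Reg1 and Reg2 shared 133, against 111 to 125 for the other 13 pairs of members. These matches describe letters and show no binding. The probes' own sequences were not used here, so whether a probe also detects a related Reg transcript was not examined.

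No Reg probe passed the test of KO against control. In limma, fitted to the 27168 probes kept by the filter on low values, all 7 Reg probes were kept and 0 of 7 had an adjusted p under 0.05, where 0% of all probes were called. At an unadjusted p under 0.05 there were 1192 probes and 0 of the 7, although Reg3g or Reg4 had such a p under 4 of 16 alternatives. The KO and control arrays overlapped for all 7 Reg probes, while they did not overlap for 9.02% of all probes. The 95% intervals of the differences all included 0 and spanned several log2 units, so differences of the size measured were not detectable with 3 arrays a group. The standard errors of the 7 probes, from 1.04 to 2.95 log2 units, lay between the 83.6th and the 99.9th percentile of those of all probes, whose median was 0.69.

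The arrays share 1 median intensity (3.82) and 1 maximum (16715), with values floored at 1, and 33.5% to 36.9% of probes were at the floor on 5 arrays and 41.6% on control 2. Control 2 stood apart also in its estimated array weight, 0.19 against 1.24 to 1.87 for the other arrays. The brightest Setd2 probe had intensities of 201, 119 and 146 on the KO arrays and 374, 600 and 329 on the control arrays, and the groups did not overlap (log2 difference -1.47, SE 0.47, limma adjusted p = 0.846). Of its other 2 probes, both dim, the differences were -0.02 and -0.64. The first had control 2 at the floor and differed by -1.72 without it. Their position relative to the deletion is not known, which limits this check of the labels. Of 12 markers of colon epithelium, all had intensities over 64 on every array other than control 3, where 11 did.

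Reg3b, a bactericidal lectin of the gut lining, gave the brightest signal of the family on its main probe (ILMN_2887421). Its intensities were 2765, 828 and 5307 on the KO arrays, against 100, 1087 and 1509 on the control arrays. The highest value was on KO 3 and the lowest on control 1, and KO 2 lay below 2 of the 3 control arrays. On the log2 scale KO averaged 11.17 ± 1.36 and control 9.10 ± 2.14 (SD, n = 3 each), a difference of 2.07 with a standard error of 1.20 (95% interval -0.81 to 4.95, limma adjusted p = 0.921). An exact 2-sided permutation test gave p = 0.3, where 3 against 3 values allow no p below 0.1. Without control 1 the difference was 0.84.

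The second Reg3b probe (ILMN_2705804) was dim, at 42.3, 10.2 and 131 on the KO arrays and 1.13, 57.6 and 28.0 on the control arrays. It shared with the main probe its highest array, KO 3, and its lowest, control 1. Its difference was 1.65 (SE 1.64, 95% interval -2.27 to 5.57, limma adjusted p = 0.921), and -0.07 without control 1. For both Reg3b probes the mean was thus higher in KO with all 6 arrays, and 1 control array set much of the size.

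Reg3g, the lectin that kills Gram-positive bacteria, was dim. It had intensities of 19.1, 17.9 and 103 on the KO arrays, against 3.39, 3.66 and 24.2 on the control arrays. All 3 KO arrays lay above control 1 and control 2, but control 3 lay above KO 1 and KO 2. KO averaged 5.04 ± 1.43 and control 2.74 ± 1.61 on the log2 scale (SD, n = 3 each). The difference of 2.29 (SE 1.04, 95% interval -0.20 to 4.79, limma adjusted p = 0.921) had the smallest unadjusted p of the family. It stayed above 0 without each array in turn, between 1.47 without KO 3 and 3.22 without control 3. Because the probe lies close to the floor, an offset shrinks it, to 0.50 on the log2(value + 64) scale. The exact permutation test gave p = 0.3.

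**Figure D1:**
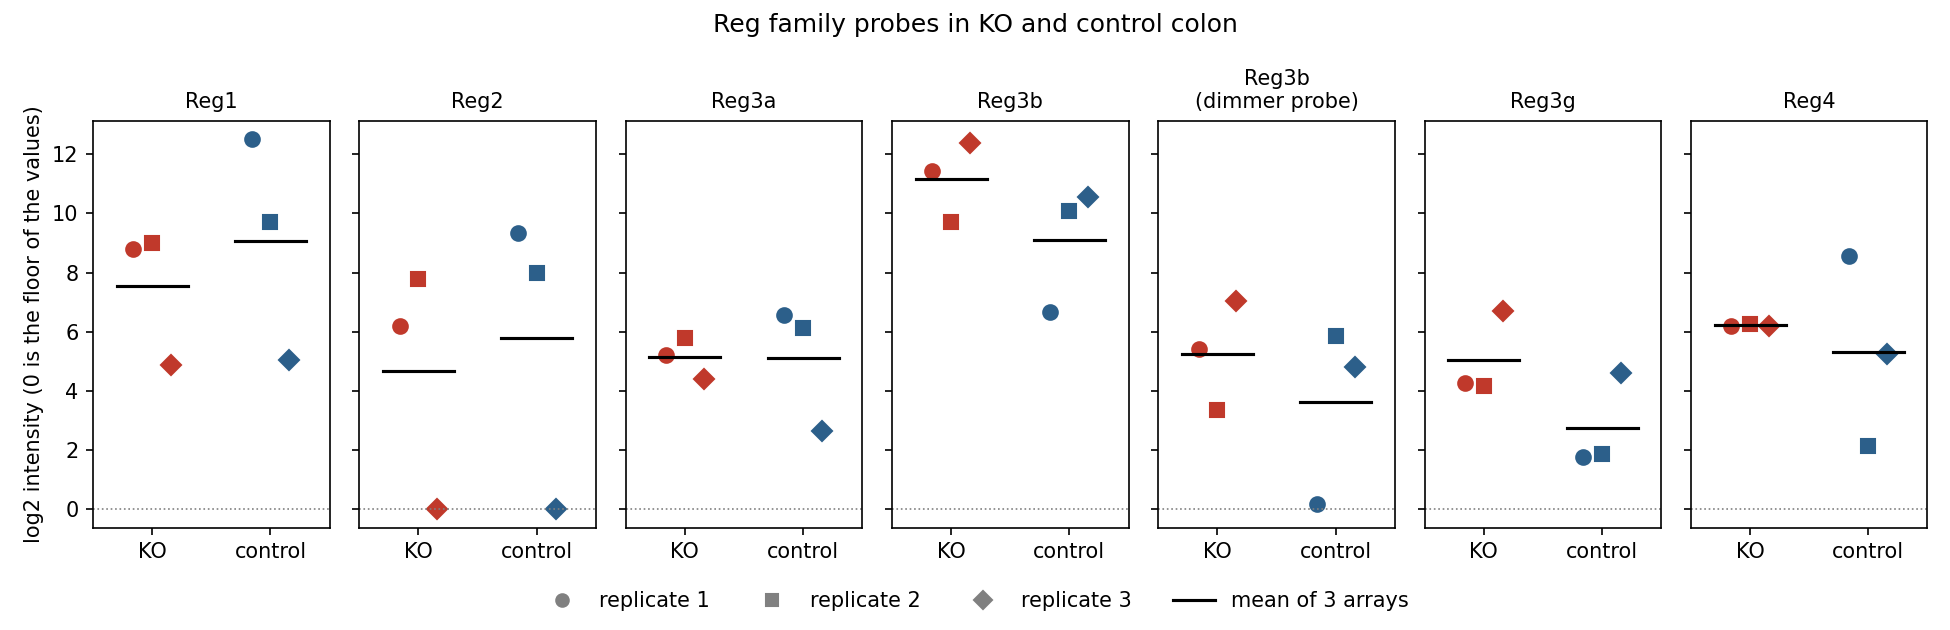
Log2 intensity of the 7 Reg family probes on each array, KO left and control right in each panel, where the marker shape gives the replicate number, the bar is the mean of 3 arrays and 0 is the floor. The groups overlap in every panel, and the 3 KO arrays lie together only for Reg4.

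Reg1, a secreted acinar protein, varied widely between the arrays of each group. Its intensities were 440, 509 and 29.0 on the KO arrays, against 5787, 831 and 32.8 on the control arrays, so that the highest array had 199 times the signal of the lowest. The lowest arrays were KO 3 and control 3, 1 in each group. On the log2 scale KO averaged 7.54 ± 2.33 and control 9.08 ± 3.77 (SD, n = 3 each). The difference was -1.53 (SE 2.03, 95% interval -6.39 to 3.33, limma adjusted p = 0.924). It was 0.18 without control 1 and -3.55 without control 3.

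Reg2, the closest relative of Reg1 by upstream sequence above, had intensities of 73.6, 219 and 1 on the KO arrays, against 649, 256 and 1 on the control arrays. KO 3 and control 3 were at the floor, so the fitted difference of -1.12 (SE 2.95, 95% interval -8.20 to 5.95, limma adjusted p = 0.956) is no fold change. Over the arrays above the floor, KO 1 and KO 2 lay below control 1 and control 2. Leaving out single arrays moved the Reg2 difference between -4.01 without control 3 and 1.21 without KO 3, and it was 0.66 without control 1.

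Reg3a, named with the Reg3 group, had intensities of 37.6, 55.1 and 21.3 on the KO arrays, against 95.1, 68.9 and 6.21 on the control arrays. Its KO mean was 5.14 ± 0.69 and its control mean 5.10 ± 2.15 on the log2 scale (SD, n = 3 each), a difference of 0.04 (SE 1.09, 95% interval -2.56 to 2.64, limma adjusted p = 0.998). Here too the control arrays held both the highest value, on control 1, and the lowest, on control 3. Without control 3 the difference was -1.20.

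Reg1, Reg2 and Reg3a ordered the 4 arrays with the most signal identically, as control 1, control 2, KO 2 and KO 1, with KO 3 and control 3 lowest. This order crosses the genotypes. A list of pancreatic acinar genes showed nearly the same split. Of its 25 genes 19 were measured, and 15 of the 19 were lower on both KO 3 and control 3 than on each of the other 4 arrays. The exceptions were Clps, Pnliprp2, Sycn and Zg16, and Zg16 is also a goblet cell gene. For 17 of the 19 genes control 1 was the highest array. The shares of all named genes with these array orders were not counted, so these counts have no background beside them.

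The median log2 level of the 19 acinar genes was 9.27, 9.01 and 2.29 on KO 1, KO 2 and KO 3, against 12.37, 9.86 and 1.83 on control 1, control 2 and control 3. The elastase gene Cela2a had intensities of 4044, 2276 and 1 on the KO arrays and 16339, 8630 and 1 on the control arrays. On KO 3 the floor was reached by 8 of the 19 genes, Cela2a, Cela3b, Cpa1, Cpb1, Ctrb1, Ctrc, Pla2g1b and Prss2, and on control 3 by 4, Cela2a, Cela3b, Cpb1 and Ctrc. On the other 4 arrays no acinar gene was at the floor, although Ctrc was close to it on KO 1, at 1.03. The summed intensity of the list ranged from 24525 to 40225 in KO and from 21987 to 126069 in control, of which Zg16 alone gave 11363 to 14620 in KO and 11073 to 12569 in control. Without Zg16 the sums were 28103, 17343 and 9906 on the KO arrays and 113569, 34628 and 9418 on the control arrays. On KO 3 and control 3 most of this came from Clps (3658 and 5609) and Pnliprp2 (4686 and 2726), both among the exceptions above. Digestive enzyme transcripts thus moved with Reg1, Reg2 and Reg3a across the arrays, and their part in the KO and control values of these genes was not tested. In bulk RNA, fewer cells of a type and less RNA per cell cannot be told apart.

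As a list, the acinar genes had 3 members with a higher and 16 with a lower mean in KO among the 19 tested, with a median log2 difference of -1.26, beside -0.09 over all 14530 named genes. Single arrays turned its sign, with a median of 0.77 without KO 3 and 0.54 without control 1, against -3.97 without control 3 and -0.40 without control 2, and it was -0.31 with array weights. None had an adjusted p under 0.05. At an unadjusted p under 0.05 in limma, 0 were higher and 1 was lower, where 1.38% of named genes were higher and 2.2% lower. The 4 members of smallest p were the colipase gene Clps with a difference of -1.41 (SE 0.49), the chymotrypsin gene Ctrc with -3.91 (SE 1.92), the lipase relative Pnliprp2 with 0.94 (SE 0.53) and the trypsin gene Prss2 with -2.87 (SE 2.51). KO 3 and control 3 were at the floor for Ctrc, and KO 3 for Prss2. Ctrc measured 1.03 and 3.94 on KO 1 and KO 2, near the floor too, so its difference is no fold change.

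**Figure D2:**
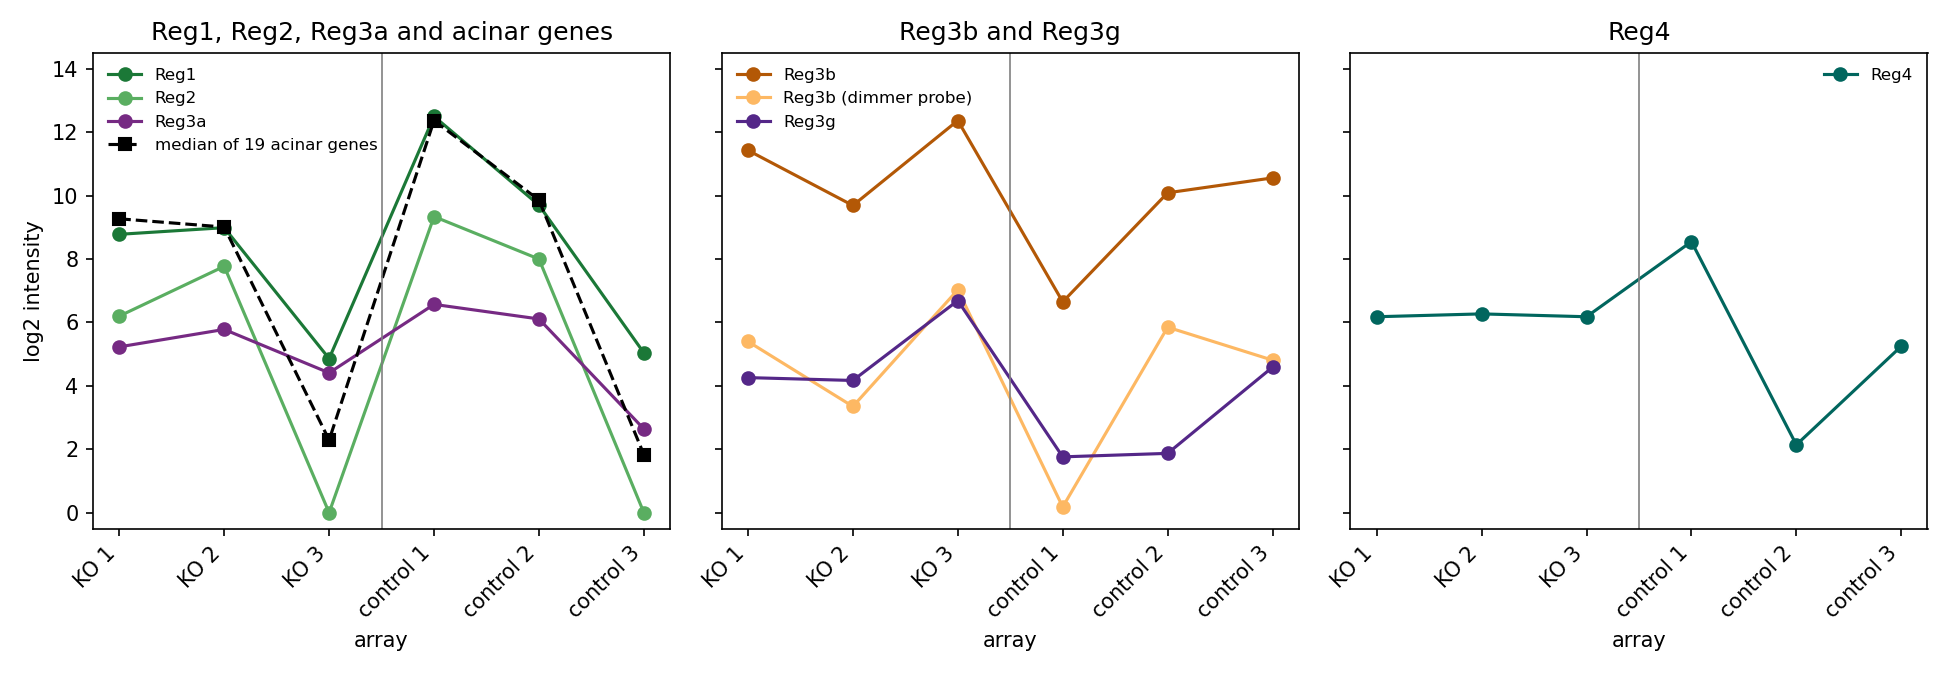
Log2 intensity on each array, KO arrays left of the line and control arrays right, for Reg1, Reg2 and Reg3a with the median of 19 pancreatic acinar genes (left panel), for Reg3b and Reg3g (middle) and for Reg4 (right). In the left panel all 4 curves are lowest on KO 3 and control 3 and highest on control 1, while Reg3b and Reg3g are highest on KO 3 and lowest on control 1.

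Reg4, the marker of deep crypt secretory cells, had intensities of 72.5, 77.0 and 72.3 on the KO arrays, against 374, 4.40 and 38.1 on the control arrays. The KO arrays differed little among themselves, with a log2 SD of 0.05, and all lay between the highest and the other control arrays. KO averaged 6.21 ± 0.05 and control 5.31 ± 3.21 (SD, n = 3 each). The difference was 0.90 (SE 1.49, 95% interval -2.68 to 4.47, limma adjusted p = 0.935). Without control 2, the array with the most probes at the floor, it was -0.69, and without control 1 it was 2.51.

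Other genes of the cells known to carry Reg4 were counted beside it. Of 16 genes of deep crypt secretory and goblet cells, 9 had a higher and 7 a lower mean in KO. Their median difference was 0.02, and 0 passed the adjusted threshold or an unadjusted p under 0.05. Over all named genes, 43.9% had a higher mean in KO, and 1.38% were higher and 2.2% lower at that unadjusted limma p. Clca1, Muc2, Retnlb, Spink4 and Zg16 lay between 11013 and 15523 on every array, close to the shared maximum of 16715. Whether this narrows their differences was not tested. Fcgbp, a mucus protein, measured 8.37, 1.71 and 9.99 on the KO arrays and 37.9, 60.1 and 8.40 on the control arrays. The trefoil peptide gene Tff3 measured 2599, 2381 and 2181 on the KO arrays, below 2723, 4619 and 2709 on the control arrays, a difference of -0.45 (SE 0.43, limma adjusted p = 0.921). The Notch ligand gene Dll4 and the transcription factor gene Foxa2 differed by 1.28 (SE 0.75) and 1.18 (SE 0.85), with Dll4 near the floor. The median log2 level of the 16 genes ranged from 8.79 to 9.02 in KO and from 8.99 to 9.10 in control.

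Of 15 enteroendocrine genes, 13 had a higher and 2 a lower mean in KO. Their median difference was 0.45, and 0 had an adjusted p under 0.05. At an unadjusted p under 0.05, 1 of 15 was higher and 0 were lower, beside 1.38% and 2.2% of named genes, and 43.9% of named genes had a higher mean in KO. That gene was Neurog3, which specifies hormone cells, with 27.3, 36.2 and 69.4 on the KO arrays against 8.43, 14.2 and 24.3 on the control arrays. The granin genes Scg3 and Scg2 differed by 1.84 (SE 0.80) and 2.43 (SE 1.60) and the tachykinin gene Tac1 by 1.43 (SE 0.90). Each had its lowest value on control 2, the lowest array for Reg4 and the array with the most probes at the floor. Scg2 was at the floor on control 2, so its value is no fold change. Without control 2 the differences were 1.06 for Scg3, 0.45 for Scg2 and 0.39 for Tac1. In the same list, Neurog3, Chgb, Cck, Chga, Sct and Sst were lowest on control 1, where Reg4 was highest. Neurog3 stayed at 1.52 without control 2. The median difference of the list was 0.62 without control 2 and 0.26 without control 1.

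**Figure D3:**
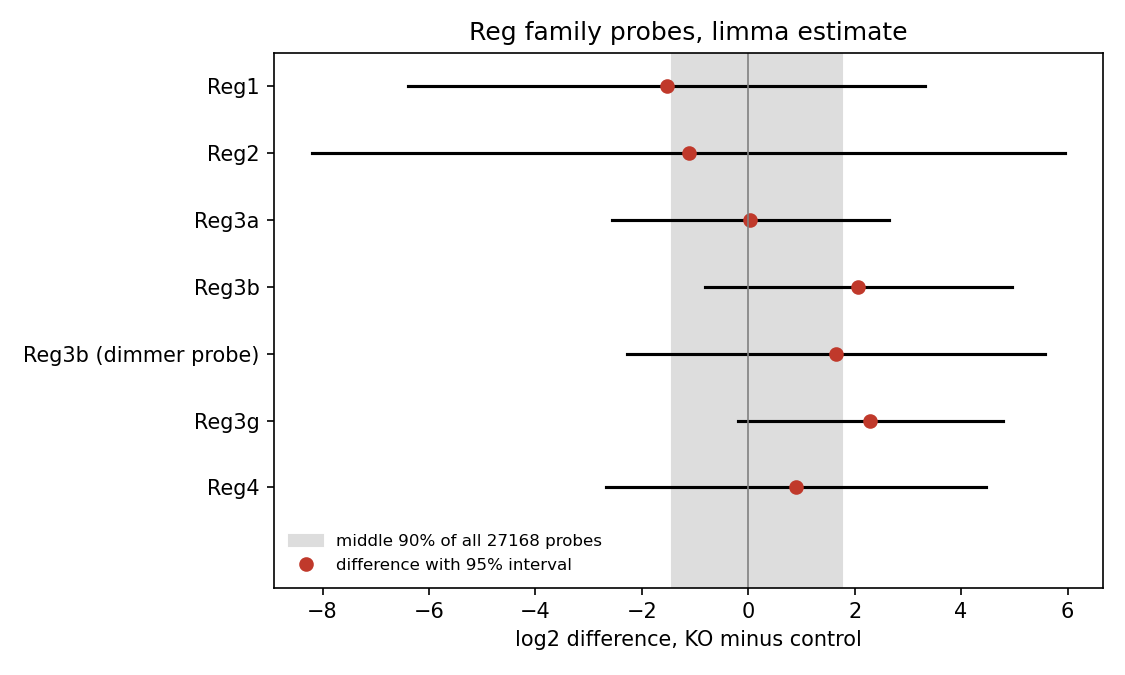
Log2 difference, KO minus control, of each Reg family probe (points) with limma's 95% interval (lines), on a band that holds the 5th to the 95th percentile of the differences of all 27168 probes, -1.44 to 1.77. Every interval crosses 0, and the points for Reg1, the main Reg3b probe and Reg3g lie outside the band.

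The signals known to act upstream of Reg3b and Reg3g were examined beside them. Of 21 genes of IL-22, IL-17 and STAT3 signalling, 15 were tested, of which 7 had a higher and 8 a lower mean in KO (median difference -0.05), and 0 passed the adjusted threshold or an unadjusted p under 0.05. Il22, the cytokine that induces Reg3 genes, was listed at 1 on every KO array and on control 1, and measured 15.9 and 6.34 on control 2 and control 3. Il6, Il17ra and Il23a, all near the floor, differed by -0.98 (SE 0.75), 1.02 (SE 0.99) and -0.66 (SE 0.77), and Il17ra, at the floor on control 2, by -0.02 without it. Without KO 2, where Il6 was at the floor, Il6 differed by -0.25 and Il23a by 0.06.

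Other epithelial genes induced by these cytokines gave a mixed picture. Of 17 tested, 9 had a higher and 8 a lower mean in KO (median difference 0.09), with 0 past either threshold. Socs3, the feedback inhibitor of STAT3, measured 72.8, 65.1 and 98.0 on the KO arrays, below 145, 145 and 101 on the control arrays. Its difference was -0.73 (SE 0.43, limma adjusted p = 0.921). Lrg1 differed by -0.82 (SE 0.51) and the serum amyloid genes Saa1 and Saa3 by 1.13 (SE 0.94) and -1.63 (SE 1.39). Without control 2 the Saa1 difference was 0.14, that of Saa3 -0.95 and that of Lrg1 -0.46. Saa3 was highest on control 3 (520) and lowest on control 1 (18.5), so it shared with Reg3b its lowest array but not its highest. Dmbt1 was also lowest on control 1, and Nos2 was at the floor there and on control 2. In contrast, Fut2, Muc1, Osmr and Cebpd were highest on control 1.

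Of 16 tested genes for sensing of bacteria, the route through MyD88, 6 had a higher and 10 a lower mean in KO (median difference -0.26), with 0 past either threshold. Tlr4, the receptor of lipopolysaccharide, measured 44.2, 58.0 and 65.3 on the KO arrays, below 71.7, 117 and 78.3 on the control arrays (difference -0.66, SE 0.44, limma adjusted p = 0.921). Il18r1, Il1r1 and Nfkbia differed by -1.73 (SE 0.75), -1.01 (SE 0.80) and 1.06 (SE 0.90), and without control 2 Nfkbia differed by 0.03 and Il18r1 by -1.11. Il18r1 and Il1r1 were near the floor, and Il1r1, at the floor on KO 2, differed by -0.50 without it. Extl3, described as a receptor of Reg proteins, measured 871, 598 and 774 on the KO arrays and 1075, 930 and 624 on the control arrays, a difference of -0.21 (SE 0.44, 0 of 5 exostosin family genes past either threshold, median -0.21). Its relatives Ext1, Ext2 and Extl1 differed by -0.38 (SE 0.42), -0.28 (SE 0.41) and 0.73 (SE 0.84). Extl1 was near the floor, and at the floor on control 3, without which it differed by -0.10. The groups overlapped for all 5 of these genes.

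Small intestine, which expresses Reg3 genes strongly, was followed through 16 measured genes of 20. Their summed intensity ranged from 15336 to 23343 in KO and from 15993 to 16698 in control. Of these sums Ang4 alone gave 12244 to 13305 in KO and 12244 to 13208 in control, so they reflect the other genes little. Apoa1 and Apoa4, named after their values were seen, measured 5126 and 2819 on KO 1, against at most 321 and 224 on the other arrays. The median log2 level of the genes was 7.88, 4.79 and 5.85 on KO 1, KO 2 and KO 3, against 4.67, 5.48 and 5.59 on control 1, control 2 and control 3. The highest level was on KO 1, not on KO 3, where Reg3b and Reg3g were highest, and the lowest was on control 1, where they were lowest. Between 2 and 4 of the 16 were at the floor on each array. Of 15 tested, 9 had a higher and 6 a lower mean in KO (median difference 0.05), with 0 past either threshold. The brush border enzyme genes Anpep and Sis and the lipoprotein gene Apob differed by 1.71 (SE 1.06), 2.78 (SE 1.78) and 2.39 (SE 1.52), and Reg3d by -2.13 (SE 1.42). Anpep, Sis and Apob were highest on KO 1, at 340, 310 and 178, and without it they differed by 0.76, 1.55 and 1.42. Sis was at the floor on control 1 and Apob on control 2. The part of these transcripts in the Reg3 values was not tested.

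**Figure D4:**
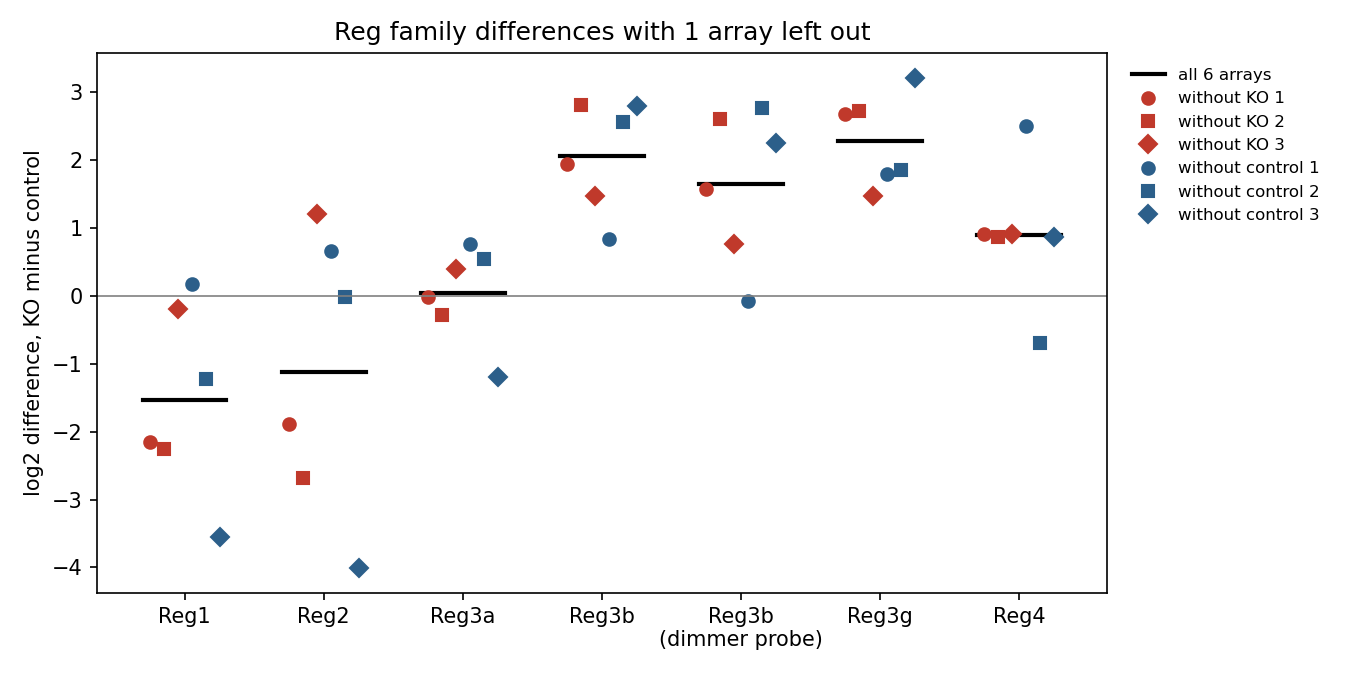
Log2 difference, KO minus control, of each Reg family probe with all 6 arrays (black bars) and with 1 array left out (points, red for a KO array left out and blue for a control array). The points stay above 0 for Reg3g and for the main Reg3b probe and fall on both sides of 0 for the other 5 probes.

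The genes whose levels over the 6 arrays were most like those of each member were taken from the named genes with a mean above the 70th percentile of all probes, by Pearson's r of log2 values, as a description of 6 arrays. For Reg1 they were Cel (r = 0.997), Ctrl (0.992), Rab15 (0.989), Rnase1 (0.986) and Pla2g1b (0.982), and all but Rab15 are in the acinar list. Cel, a pancreatic lipase gene, measured 151, 114 and 3.81 on the KO arrays and 2270, 217 and 3.55 on the control arrays. For Reg2 they were AI837181 (0.993), Psip1 (0.990), Try4 (0.986), Rnase1 (0.985) and Gm5771 (0.985), of which Try4 and Rnase1 are in that list.

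For Reg3a the most alike were Nt5c3 (0.989), Tmprss2 (0.985), Ano1 (0.972), Phlda1 (0.970) and Nde1 (0.968), none of them in the acinar list. For the main Reg3b probe they were Psg23 (0.988), Cyp2s1 (0.974), Vapb (0.963), Slc7a9 (0.961) and Hmg20b (0.955), and for Reg3g they were Csrp1 (0.978), Lgals2 (0.978), Cpne8 (0.975), Itgb4 (0.957) and Smtn (0.957). Lgals2, a galectin gene, measured 96.3, 46.6 and 446 on the KO arrays and 18.2, 12.6 and 87.6 on the control arrays, with KO 3 highest as for Reg3g. For Reg4 they were Rubcn (0.989), Smarcc2 (0.988), Pex5 (0.986), Cd72 (0.981) and Utp6 (0.978). With 8621 genes compared over 6 arrays, values this close to 1 are reached readily, and the arrays fall into separate clusters for Reg1 and Reg2.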

How the data were processed

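Colon RNA of 3 Setd2 KO and 3 control samples was amplified to biotinylated cRNA and hybridised to Illumina arrays, per the labels' protocols. The authors' deposited probe intensities are linear and already normalized. The software and background correction used for them were not given in the sources used here. A table of unnormalized values was not used, because its 12 columns match no sample's labels. Intensities were log2 transformed without an offset. A probe was kept where its log2 mean exceeded the 40th percentile (0.96), which left 27168 of 45281, and each was fitted as its own feature in limma 3.58.1 (R 4.3.3; lmFit and eBayes, 2-sided, Benjamini-Hochberg over all kept probes, threshold 0.05). Differences are KO minus control. The number of arrays limits the precision. Lists used each gene's probe of highest mean, named through the platform annotation, and the up to 4 members of smallest p were named. For each member, the 5 most alike named genes were taken. Upstream windows of 200 bases were aligned with Biopython 1.88 (match 1, mismatch -1, gap opening -2, extension -0.5). The members and lists were chosen with earlier results of these data known. The fit was checked on simulated normal values without a floor, for whether the mean estimate followed the planted difference. This check does not cover probes at the floor. Alternatives covered the offset, filter, probe choice, eBayes options, scaling, array weights, replicate number as a block and each array left out.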

Additional observations from a re-analysis of the deposited data

How the results depend on the processing

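No Reg probe passed an adjusted p of 0.05 under any of 16 alternatives. Over all probes the count was 0 in each of them except without the filter, where limma called 18 of 45281 probes, 0 of them Reg probes and 15 with all arrays of a group at the floor. Replicate numbers are shared by the groups' labels. Over all kept probes, deviations of same-numbered arrays correlated at 0.16, -0.09 and -0.01 for numbers 1, 2 and 3, against -0.19 to 0.14 for other pairs. With the replicate block 0 probes passed, and 1152 had an unadjusted p under 0.05 against 1192 without it. For Reg1, Reg2 and Reg3a, however, the lowest arrays were the same-numbered KO 3 and control 3. The block lowered the SE from 2.03 to 0.86 for Reg1, from 2.95 to 0.81 for Reg2 and from 1.04 to 0.49 for Reg3g. It lowered the SE less for the other Reg probes. An unadjusted limma p under 0.05 was reached by 1 Reg probe under 4 alternatives, by Reg3g with the block, with trend and robust eBayes and without control 3, and by Reg4 without control 1. The limma adjusted p was 0.930, 0.915, 0.535 and 0.699 in these. The Reg3g and main Reg3b differences kept their sign under every alternative that gave a value, at 0.50 to 3.22 and 0.84 to 2.81. Reg3g lies below the 70th percentile and the second Reg3b probe was not used with 1 probe for each gene, so these have no value there. With array weights, which give control 2 little weight, Reg2 was 0.07 and Reg4 -0.39, reversed from all arrays weighted equally. Reg3a was -0.19 with an offset of 16 and -0.17 with 64, and Reg4 was -0.07 with 64. With 1 array left out, the log2 differences ranged from -3.55 to 0.18 for Reg1, from -4.01 to 1.21 for Reg2, from -1.20 to 0.77 for Reg3a, from -0.07 to 2.77 for the second Reg3b probe, from -0.69 to 2.51 for Reg4, from -1.67 to -1.21 for the bright Setd2 probe and from -1.72 to 0.90 for a dim Setd2 probe. The median differences of gene lists then ranged from -0.50 to 0.12 for IL-22, IL-17 and STAT3 signalling, from -0.23 to 0.18 for genes these cytokines induce, from 0.26 to 0.78 for enteroendocrine genes, from -3.97 to 0.77 for acinar genes and from -0.87 to 0.44 for neutrophil genes. Above the 70th percentile the medians were 0.01 for bacterial sensing, -0.64 for neutrophil and -0.81 for posterior Hox genes. With array weights they were 0.64 for enteroendocrine and 0.32 for neutrophil genes. The cause of these shifts was not tested. Signals near the floor limit what can be read for Reg3g, Reg2, Reg3d and Il22.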

Other observations

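Reg3d, the gene between Reg3b and Reg3a, has 1 probe here and was dim, at 1.48, 4.91 and 1 on the KO arrays and 43.4, 14.1 and 1 on the control arrays. Its 4 highest arrays were control 1, control 2, KO 2 and KO 1, the order of Reg1, Reg2 and Reg3a, and KO 3 and control 3 were at the floor. Its fitted difference was -2.13 (SE 1.42, limma adjusted p = 0.921).

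Neutrophil genes were mostly dim, with a summed intensity over 10 genes of 83.7 to 176 in KO and 111 to 390 in control, highest on control 2. Retnlg, named after its values were seen as the brightest of them, measured 42.1, 100 and 132 on the KO arrays and 43.7, 269 and 84.1 on the control arrays. Of 7 tested, 2 had a higher and 5 a lower mean in KO (median difference -0.28), with 0 past the adjusted threshold or an unadjusted p under 0.05. Fpr2, Cxcr2, Csf3r and Ltf differed by -1.57, -1.39, 1.45 and -0.99. Posterior Hox genes, which rise toward the distal colon, were also dim, with summed intensities over 6 genes of 58.5 to 94.1 in KO and 71.1 to 322 in control. Hoxd10 measured 41.5, 20.2 and 57.6 on the KO arrays and 30.5, 248 and 139 on the control arrays, and Hoxd11, Hoxd13 and Hoxd12 differed by -1.05, 0.61 and -0.28. Of 5 tested, 1 had a higher and 4 a lower mean in KO (median difference -0.28), with 0 past either threshold. Among 12 colon epithelium genes, 10 had a higher and 2 a lower mean in KO (median difference 0.29), with 0 past either threshold. Over all named genes, 43.9% had a higher mean in KO and the median difference was -0.09. At an unadjusted limma p under 0.05, 1.38% of named genes were higher and 2.2% lower. Car1, Aqp8, Car4 and Krt19 were lowest on control 2 and differed by 3.30, 2.03, 1.59 and 1.00, and without that array by 2.25, 1.48, 0.15 and -0.12. Car1 was also low on control 1, at 463 against 13083 on control 3. Aqp8 was also low on control 3, at 493 against 3595 on control 1.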
